A study of Mus musculus with 6 samples.

Results

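The respiratory chain was followed through 95 of the 13098 genes in the deposited filtered table of cultured mouse lung endothelial cells. Members were taken by symbol from that table, which held only genes over 1 CPM (counts scaled to the library total) in at least 2 libraries. The 13 symbols of the same patterns that lay outside it are not members. Symbols beginning with Nduf, Cox4 to Cox8, Uqcr or Atp5, together with Sdha, Sdhb, Sdhc and Sdhd, gave 83 genes of the nuclear genome. Symbols beginning with mt-Nd, mt-Co, mt-Cytb or mt-Atp gave 12 genes of the mitochondrial genome. The nuclear symbols held 75 subunits and 8 genes that are not subunits, namely Ndufaf1 to Ndufaf7 and Atp5sl, which are assembly factors of complex I and are described on their own. Cyc1, the cytochrome c1 subunit of complex III, has a symbol outside these patterns and is given with the other genes of the pathway.

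Complexes I to IV of the inner mitochondrial membrane pass electrons from NADH and succinate to oxygen. Complexes I, III and IV pump protons as they do so, and complex V, the ATP synthase, uses the proton gradient to make ATP. Complexes I, III, IV and V are built from subunits of both genomes, whereas complex II is encoded in the nucleus alone. Nuclear subunits are translated in the cytosol and imported, while the mitochondrial messages are transcribed by a dedicated RNA polymerase inside the organelle. Endothelial cells are known to draw much of their ATP from glycolysis, and their respiratory chain is studied for its part in proliferation and redox balance.

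Each of the 3 groups held 2 libraries of polyA-selected RNA. The first group received extracellular vesicles of MC38 mouse colorectal tumour cells (TEV, 20 µg per ml for 12 h) after reserpine, a blocker of vesicular monoamine transport, at 10 µM for 8 h. The next received TEV alone, and the last received vehicle. Every library came from Ch25h-null cells, which lack the enzyme that makes 25-hydroxycholesterol, and the donors were female C57BL6 mice aged 3 weeks. No group received reserpine without TEV, and no group carried an intact Ch25h gene. The design text of the series leaves room for reserpine in every group, and the labels of the samples were followed. Nothing in the labels says whether the 2 libraries of a group came from separate cultures or animals, so the p-values measure the spread between these libraries, which may be technical.

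Total depth ranged from 22270657 to 81225627 estimated counts. Ch25h itself had between 0.311 and 1.07 CPM in all libraries, CPM being counts scaled to the library total. The deleted stretch of Ch25h is not named in the labels, so this level checks nothing. The summed level of 12 endothelial markers was 10860 and 10680 CPM with TEV plus reserpine, 11890 and 11740 CPM with TEV, and 5374 and 5375 CPM with vehicle, with no marker at 0. Markers of other cell types differed between the same groups. The 10 fibroblast markers summed to 98.02 and 80.6 CPM with TEV plus reserpine, 52.1 and 62.9 CPM with TEV, and 3399 and 2971 CPM with vehicle. The 12 pericyte and smooth muscle markers summed to 948 and 874 CPM with TEV plus reserpine, 737 and 864 CPM with TEV, and 2124 and 2111 CPM with vehicle, with Higd1b under 3 counts in all libraries. Vehicle libraries were therefore lowest in the summed endothelial and highest in the summed fibroblast and pericyte markers. The endothelial list was not uniform, since 9 of its 12 genes were called higher and 3 lower with TEV than with vehicle, and 10 higher and 0 lower with TEV plus reserpine than with vehicle. Lists at low levels differed too. The 11 measured macrophage and leukocyte markers summed to 31.0 and 30.3 CPM with TEV plus reserpine, 21.4 and 21.4 CPM with TEV, and 55.4 and 67.1 CPM with vehicle. The 8 of colon tumour epithelium summed to 64.2 and 58.3 CPM with TEV plus reserpine, 63.3 and 67.95 CPM with TEV, and 23.8 and 23.4 CPM with vehicle, with Cdx1 and Cdx2 under 3 counts in all libraries. The 8 of lung epithelium and mesothelium summed to 1.29 and 1.27 CPM with TEV plus reserpine, 1.67 and 1.46 CPM with TEV, and 18.03 and 16.4 CPM with vehicle, with Sftpc and Scgb1a1 under 3 counts in all libraries. The 10 of striated muscle summed to at most 14.0 CPM in a library. The 8 adipocyte markers summed to 315 and 301 CPM with TEV plus reserpine, 818 and 858 CPM with TEV, and 172 and 185 CPM with vehicle, with Adipoq, Plin1 and Cidec under 3 counts in all libraries. In bulk RNA, fewer cells of a type and less RNA per cell cannot be told apart, and the part of these marker differences in the respiratory chain results was not tested.

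The first comparison set the 2 genomes side by side in each library. Mitochondrially encoded members held 1.852% and 2.073% of all estimated counts with TEV plus reserpine, 2.156% and 2.181% with TEV, and 2.485% and 2.665% with vehicle. The 75 nuclear subunits held 0.746% and 0.693% with TEV plus reserpine, 0.705% and 0.719% with TEV, and 0.596% and 0.627% with vehicle. Both vesicle groups thus lay below vehicle for the mitochondrial class and above vehicle for the nuclear class, without overlap.

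The ratio of mitochondrially encoded to nuclear counts does not depend on how libraries are scaled. It was 2.48 and 2.99 with TEV plus reserpine, 3.06 and 3.03 with TEV, and 4.17 and 4.25 with vehicle. On the log2 scale the ratio averaged 1.61 ± 0.0077 with TEV and 2.07 ± 0.019 with vehicle (SD, n = 2 each), a difference of -0.47. It averaged 1.45 ± 0.19 with TEV plus reserpine (SD, n = 2), which differed from vehicle by -0.63 and from TEV by -0.16. Both vesicle groups lay below vehicle by more than the spread between libraries, and the difference between the vesicle groups, which did not overlap, was smaller than the spread within TEV plus reserpine. Left with replicate 2 alone, TEV plus reserpine differed from TEV by -0.0265, and left with replicate 1 alone by -0.294. No p is given for the ratio, since an exact permutation test of 2 against 2 libraries cannot give a two-sided p under 0.333.

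Nuclear pseudogene copies of mitochondrial genes took a share of the counts. With the counts of near-identical copies added to their members, the ratio was 2.99 and 3.6 with TEV plus reserpine, 3.57 and 3.58 with TEV, and 4.59 and 4.70 with vehicle. Both vesicle groups again lay below vehicle, with differences of -0.50 for TEV plus reserpine and -0.38 for TEV on the log2 scale. TEV plus reserpine overlapped with TEV, with a difference of -0.12. The plot of class shares and ratios shows both ways of counting.

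**Figure D1:**
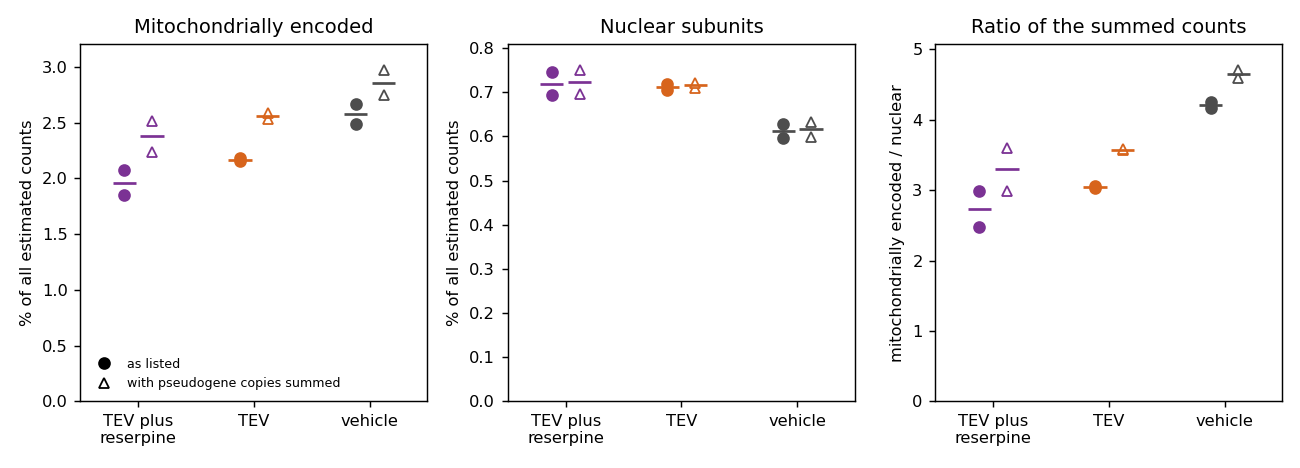
Share of all estimated counts held by the 12 mitochondrially encoded members (left) and the 75 nuclear subunits (middle), in percent, and the ratio of their summed counts (right). Each point is a library, lines are group means, filled circles are members as listed and open triangles have pseudogene copies summed; vehicle has the highest mitochondrial share and ratio and the lowest nuclear share.

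Within complexes that draw on both genomes, the log2 ratio with TEV differed from that with vehicle by -0.476 in complex I, -0.587 in complex III, -0.435 in complex IV and -0.999 in complex V, none with overlap between the groups. For complex V, where mt-Atp6 is the only mitochondrial member measured, the difference was -0.52 once the pseudogene copy of mt-Atp6 was added. In complexes I, III and IV it was -0.48, -0.59 and -0.32 with copies added. TEV plus reserpine against vehicle gave -0.64 in complex I, -0.54 in complex III, -0.72 in complex IV and -1.18 in complex V. Against TEV, the ratios with TEV plus reserpine overlapped in complexes I, III and V and were lower in complex IV, with a difference of -0.285. With copies added, the ratios in that comparison overlapped in complexes I and III, and were lower without overlap in complex IV (-0.185) and in complex V (-0.356, against -0.184 as listed). TEV plus reserpine against vehicle then gave -0.64 in complex I, -0.54 in complex III, -0.51 in complex IV and -0.88 in complex V.

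By edgeR's quasi-likelihood test with Benjamini-Hochberg adjustment, 41 of the 75 nuclear subunits (54.7%) were called higher and 6 (8%) lower with TEV than with vehicle, at an adjusted p under 0.05. Of all 15035 genes tested in that comparison, 49.7% were called, 25.1% higher and 24.6% lower. The median log2 change was 0.345 over the nuclear subunits and 0.012 over all genes. Among the 12 mitochondrially encoded members 1 was called higher and 6 were called lower, with a median of -0.27. With pseudogene copies added, 0 were called higher and 4 lower, with a median of -0.20.

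TEV plus reserpine against vehicle gave a similar count for the nuclear class. There, 40 nuclear subunits (53.3%) were called higher and 1 lower, with a median of 0.32, against 39.1% of all genes called, 19.1% higher and 19.9% lower, with a median of -0.024. Of the mitochondrially encoded members 0 were called higher and 9 lower, with a median of -0.36, and 8 were lower once copies were added. Both vesicle groups were set against the same 2 vehicle libraries, so these counts are not independent.

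Few nuclear subunits were called between the vesicle groups. In TEV plus reserpine against TEV, 4 nuclear subunits (5.33%) were called higher and 3 (4%) lower, against 31.6% of all genes called, 15.7% higher and 16% lower. The median was 0.028 over the nuclear subunits and 0.00037 over all genes. Of the mitochondrially encoded members 0 were called higher and 3 lower, with a median of -0.17 that was -0.058 without TEV replicate 2. With copies added, 5 were called lower, with a median of -0.20. At an unadjusted p under 0.05, edgeR counted 8587 of all genes in TEV against vehicle, 6665 in TEV plus reserpine against TEV and 7273 in TEV plus reserpine against vehicle.

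Single libraries moved the nuclear counts. Without vehicle replicate 1, 20 nuclear subunits were called higher and 3 lower in TEV against vehicle, and 13 were called higher and 0 lower in TEV plus reserpine against vehicle. With vehicle replicate 2 left out, or replicate 1 of TEV plus reserpine, 19 were called higher in that second comparison. Scaling by library size alone shifted the median of all genes to -0.11 in TEV against vehicle, and 27 nuclear subunits were then called higher there. The medians were then 0.22 over the nuclear subunits and -0.40 over the mitochondrially encoded members. The median change of the nuclear subunits stayed between 0.32 and 0.39 in TEV against vehicle, and between 0.28 and 0.34 in TEV plus reserpine against vehicle, when any library was left out.

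**Figure D2:**
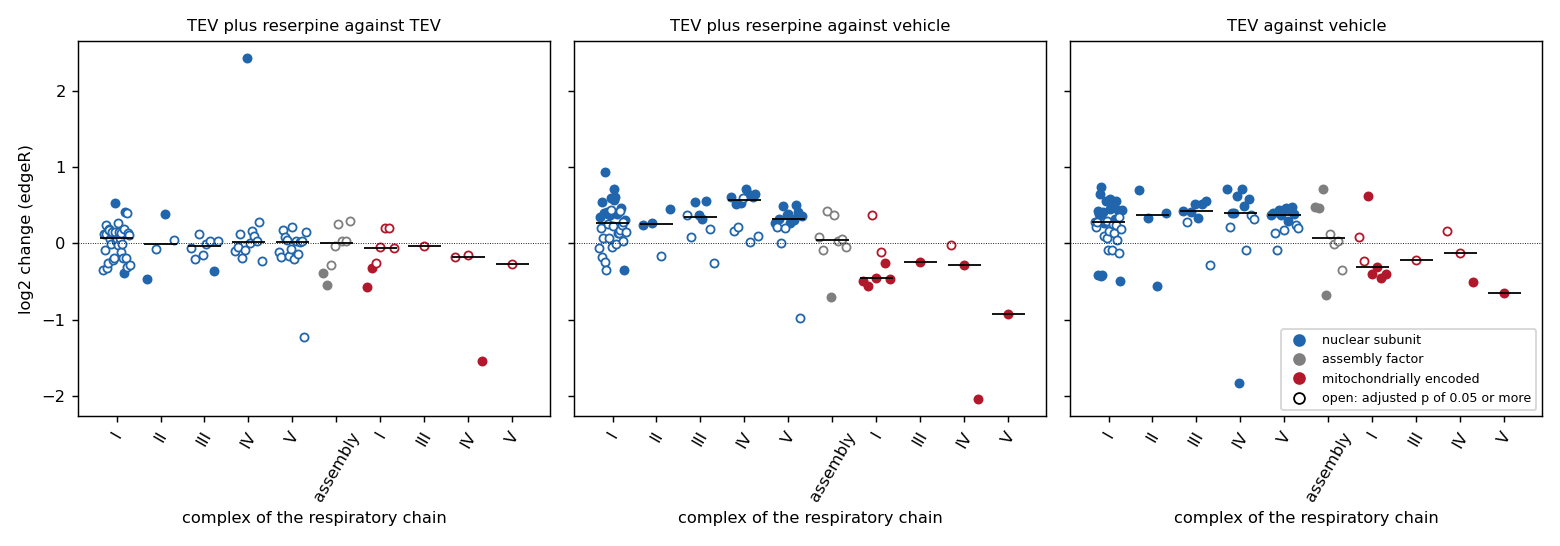
Log2 change of all 95 members by complex in 3 comparisons, with nuclear subunits in blue, assembly factors in grey and mitochondrially encoded members in red as listed. Each point is a gene, filled where the edgeR adjusted p is under 0.05, and lines are medians; most nuclear subunits lie above 0 against vehicle and near 0 in TEV plus reserpine against TEV.

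Complex I takes electrons from NADH and is the largest of the complexes. With TEV, 15 of its 36 nuclear subunits (41.7%) were called higher and 4 (11.1%) lower than with vehicle, with a median of 0.29. Among all genes the shares were 25.1% and 24.6%. Of the 29 accessory subunits, 13 (44.8%) were called higher and 3 (10.3%) lower. Of the 7 core subunits, 2 (28.6%) were called higher and 1 (14.3%) lower. Ndufa5, an accessory subunit of the matrix arm, had 32.5 and 34.5 CPM with TEV plus reserpine, 30.3 and 28.6 CPM with TEV, and 15.8 and 19.4 CPM with vehicle. All 4 vesicle libraries lay above both vehicle libraries, and Ndufa5 had the largest called rise among nuclear subunits in both comparisons with vehicle (log2 change 0.75, SE 0.127, edgeR adjusted p = 0.0031 for TEV, and log2 change 0.93, SE 0.128, edgeR adjusted p = 0.0019 for TEV plus reserpine).

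Ndufa3, another accessory subunit, had 32.5 and 30.9 CPM with TEV plus reserpine, 37.5 and 37.95 CPM with TEV, and 23.1 and 24.9 CPM with vehicle, and was higher with TEV than with vehicle (log2 change 0.65, SE 0.0962, edgeR adjusted p = 0.00172). Ndufb6, an accessory subunit of the membrane arm, had 47.7 and 44.4 CPM with TEV plus reserpine, 36.8 and 39.8 CPM with TEV, and 27.7 and 28.4 CPM with vehicle, and was higher with TEV plus reserpine than with vehicle (log2 change 0.72, SE 0.0956, edgeR adjusted p = 0.00171). The groups did not overlap for either gene. Ndufv1, the core subunit that binds NADH and flavin, went the other way, with 58.1 and 52.05 CPM with TEV plus reserpine, 49.97 and 49.7 CPM with TEV, and 67.95 and 72.7 CPM with vehicle. Vehicle was highest, and Ndufv1 was called lower with TEV (log2 change -0.50, SE 0.092, edgeR adjusted p = 0.00454) and with TEV plus reserpine (log2 change -0.35, SE 0.0925, edgeR adjusted p = 0.0235). The latter call was lost when either vehicle library or replicate 2 of TEV plus reserpine was left out. Ndufv2, the partner core subunit of Ndufv1, missed the threshold with TEV against vehicle (0.19, edgeR adjusted p = 0.0915) and was called higher with TEV plus reserpine than with vehicle (0.31, edgeR adjusted p = 0.0263). That call of Ndufv2 was lost with scaling by library size alone and with a replicate block, among other settings. The accessory subunits Ndufa6 (-0.43, edgeR adjusted p = 0.0225), Ndufa7 (-0.41, edgeR adjusted p = 0.0247) and Ndufa13 (-0.42, edgeR adjusted p = 0.0348) were also lower with TEV than with vehicle. The calls of Ndufa7 and Ndufa13 were lost when any library of these groups was left out, and that of Ndufa6 when any of them except vehicle replicate 2 was left out. None of the 3 was called with TEV plus reserpine against vehicle.

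With TEV plus reserpine against TEV, 2 nuclear complex I subunits (5.56%) were called higher and 1 (2.78%) lower, against 15.7% and 16% of all genes. Ndufb3 had 26.3 and 25.6 CPM with TEV plus reserpine, against 17.02 and 18.99 CPM with TEV (log2 change 0.53, SE 0.114, edgeR adjusted p = 0.0158). Ndufs5 had 43.4 and 37.7 CPM with TEV plus reserpine, against 28.3 and 32.3 CPM with TEV (log2 change 0.42, SE 0.122, edgeR adjusted p = 0.041). Ndufs3, a core subunit, had 28.1 and 28.2 CPM with TEV plus reserpine, against 37.2 and 36.4 CPM with TEV (log2 change -0.38, SE 0.106, edgeR adjusted p = 0.0339), and its vehicle libraries were at 23.2 and 26.8 CPM. The groups did not overlap for any of these 3 genes. Each of the 3 calls was lost when replicate 1 of TEV plus reserpine, replicate 2 of TEV plus reserpine or replicate 1 of TEV was left out.

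Complex II, succinate dehydrogenase, oxidises succinate in the tricarboxylic acid cycle and is the complex with no mitochondrial subunit. All 4 of its genes were called in TEV against vehicle, 3 higher and 1 lower, against 49.7% of all genes called. Sdha, the flavoprotein that holds the active site, had 293 and 298 CPM with TEV plus reserpine, 424 and 394 CPM with TEV, and 254 and 247 CPM with vehicle. TEV was highest, and Sdha was higher with TEV than with vehicle (log2 change 0.71, SE 0.0736, edgeR adjusted p = 0.000399), lower with TEV plus reserpine than with TEV (log2 change -0.47, SE 0.0734, edgeR adjusted p = 0.00564), and higher with TEV plus reserpine than with vehicle (log2 change 0.24, SE 0.0734, edgeR adjusted p = 0.0396). The last of these calls was lost when any library of its groups was left out, with scaling by library size alone, with no filter and with a replicate block.

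Sdhc, a membrane anchor that holds the haem with Sdhd, had the opposite order, with 58.9 and 64.9 CPM with TEV plus reserpine, 47.5 and 46.9 CPM with TEV, and 69.8 and 68.7 CPM with vehicle. TEV was lowest without overlap, so that Sdhc was lower with TEV than with vehicle (log2 change -0.55, SE 0.0861, edgeR adjusted p = 0.00217) and higher with TEV plus reserpine than with TEV (log2 change 0.39, SE 0.0863, edgeR adjusted p = 0.0165). The second of these calls was lost when replicate 1 of TEV or replicate 2 of TEV plus reserpine was left out. Sdhb, the iron-sulfur subunit, had 92.4 and 84.3 CPM with TEV plus reserpine, 93.7 and 91.7 CPM with TEV, and 72.7 and 73.8 CPM with vehicle. Sdhd, the other anchor, had 86.3 and 84.6 CPM with TEV plus reserpine, 83.3 and 82.5 CPM with TEV, and 58.1 and 67.1 CPM with vehicle. Both were higher in each vesicle group than in vehicle, Sdhb by 0.34 and Sdhd by 0.41 on the log2 scale with TEV (edgeR adjusted p = 0.0131 and 0.0108). Neither was called between the vesicle groups. The calls of Sdhb against vehicle were lost in both vesicle groups with scaling by library size alone. Its call with TEV plus reserpine (0.27, edgeR adjusted p = 0.0399) was also lost with no filter and with a replicate block. The TEV against vehicle changes of the 4 subunits of this complex therefore ran from -0.55 for Sdhc to 0.71 for Sdha.

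Complex III, the cytochrome bc1 complex, passes electrons from ubiquinol to cytochrome c. Of its 8 nuclear members 6 (75%) were called higher and 0 lower with TEV than with vehicle, with a median of 0.42. Among all genes the shares were 25.1% and 24.6%. Uqcrh, the hinge protein, had 70.3 and 69.7 CPM with TEV plus reserpine, 93.7 and 86.2 CPM with TEV, and 57.3 and 65.4 CPM with vehicle. It was highest with TEV (log2 change 0.55, SE 0.0964, edgeR adjusted p = 0.00349 against vehicle) and lower with TEV plus reserpine than with TEV (log2 change -0.36, SE 0.0964, edgeR adjusted p = 0.0306), a call that was lost when either library of TEV plus reserpine or replicate 1 of TEV was left out, and with scaling by library size alone. Uqcrfs1, the Rieske iron-sulfur protein, had 78.1 and 73.3 CPM with TEV plus reserpine, 74.9 and 72.6 CPM with TEV, and 48.5 and 54.3 CPM with vehicle, with both vesicle groups above vehicle (log2 change 0.52, SE 0.0916, edgeR adjusted p = 0.0036 for TEV). Uqcrb, Uqcrc1, Uqcrc2 and Uqcr10 were called higher with TEV with log2 changes between 0.33 and 0.51. Uqcr11 (0.29, edgeR adjusted p = 0.101) and Uqcrq (-0.29, edgeR adjusted p = 0.0833) were not called, and Uqcrq was the only nuclear member of the complex with a negative estimate. With TEV plus reserpine, 4 of the 8 (50%) were called higher than with vehicle, against 19.1% of all genes.

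Complex IV, cytochrome c oxidase, reduces oxygen. Of its 12 nuclear subunits 7 (58.3%) were called higher and 1 (8.33%) lower with TEV than with vehicle, with a median of 0.40. Among all genes the shares were 25.1% and 24.6%. With TEV plus reserpine 7 (58.3%) were called higher than with vehicle, against 19.1% of all genes, with a median of 0.57. Cox6c had 139 and 138 CPM with TEV plus reserpine, 138 and 138 CPM with TEV, and 80.7 and 87.05 CPM with vehicle. Cox4i1, the ubiquitous isoform of a regulatory subunit, had 348 and 307 CPM with TEV plus reserpine, 354 and 349.6 CPM with TEV, and 207 and 223 CPM with vehicle. For both genes every vesicle library lay well above the vehicle libraries and the vesicle groups were close to each other. Against vehicle, the change with TEV was called for Cox6c (log2 change 0.72, SE 0.0763, edgeR adjusted p = 0.000436) and for Cox4i1 (log2 change 0.71, SE 0.0881, edgeR adjusted p = 0.00082).

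Cox7c had 78.3 and 85.7 CPM with TEV plus reserpine, 64.02 and 70.8 CPM with TEV, and 46.1 and 58.4 CPM with vehicle, and was called higher than vehicle with TEV plus reserpine (log2 change 0.65, SE 0.132, edgeR adjusted p = 0.00876) but not with TEV (log2 change 0.37, SE 0.131, edgeR adjusted p = 0.0522). Whether these 2 changes differ is the comparison of TEV plus reserpine with TEV, which was not called (log2 change 0.28, SE 0.13, edgeR adjusted p = 0.142). Cox7b, Cox6b1, Cox7a2, Cox6a1 and Cox5b were called higher with TEV, with log2 changes between 0.40 and 0.63. Cox5a (0.22, edgeR adjusted p = 0.0744) and Cox8a (0.32, edgeR adjusted p = 0.0829) were not called.

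Complex IV also has isoforms that mark tissues. The broadly expressed form of each pair carried the counts. Cox6a1 had 131 and 111 CPM with TEV plus reserpine, 138 and 137 CPM with TEV, and 99.4 and 108 CPM with vehicle, while its heart and muscle form Cox6a2 had at most 17.2 counts in a library. Cox7a2 had 97.7 and 93.2 CPM with TEV plus reserpine, 86.98 and 84.2 CPM with TEV, and 56.2 and 65.9 CPM with vehicle, and its muscle form Cox7a1 had at most 5.84 counts. Cox8a had 97.2 and 75.2 CPM with TEV plus reserpine, 106 and 95.8 CPM with TEV, and 78.1 and 83.1 CPM with vehicle, and Cox8b and Cox8c, its muscle and testis forms, had at most 1.01 and 0 counts. The oxygen-regulated lung form Cox4i2 had between 0.0443 and 0.647 CPM, far under Cox4i1 in every library. Cox7a2l has been studied for a part in joining complexes III and IV into supercomplexes. It had 147 and 133 CPM with TEV plus reserpine, 128 and 134 CPM with TEV, and 133 and 143 CPM with vehicle and overlapped between all groups.

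Cox6b2, the testis isoform of Cox6b1, was measured at low levels of 3.04 and 2.58 CPM with TEV plus reserpine, 0.389 and 0.624 CPM with TEV, and 1.63 and 2.09 CPM with vehicle. TEV was lowest, and Cox6b2 was called lower with TEV than with vehicle (log2 change -1.83, SE 0.357, edgeR adjusted p = 0.00556) and higher with TEV plus reserpine than with TEV (log2 change 2.43, SE 0.361, edgeR adjusted p = 0.00457). Cox6b1, the broadly expressed form, had 82.99 and 77.1 CPM with TEV plus reserpine, 87.5 and 82.8 CPM with TEV, and 51.2 and 59.2 CPM with vehicle. The vesicle libraries were above vehicle, and Cox6b1 was called higher with TEV (log2 change 0.63, SE 0.101, edgeR adjusted p = 0.0025).

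Complex V makes ATP. With TEV 10 of its 15 nuclear subunits (66.7%) were called higher and 0 lower than with vehicle, against 25.1% and 24.6% of all genes. With TEV plus reserpine 11 (73.3%) were called higher and 0 lower than with vehicle, against 19.1% and 19.9% of all genes. No nuclear subunit of complex V was called between the vesicle groups, against 31.6% of all genes. Atp5b, the catalytic beta subunit and the nuclear member with the most counts, had 1261 and 1119 CPM with TEV plus reserpine, 1378 and 1312 CPM with TEV, and 1008 and 1032 CPM with vehicle, and was higher with TEV than with vehicle (log2 change 0.40, SE 0.0804, edgeR adjusted p = 0.00635). Atp5j2, a subunit of the membrane part, had 93.7 and 86.5 CPM with TEV plus reserpine, 87.1 and 91.1 CPM with TEV, and 60.5 and 66.9 CPM with vehicle, with both vesicle groups above vehicle (log2 change 0.49, SE 0.0911, edgeR adjusted p = 0.00476 for TEV and log2 change 0.50, SE 0.0915, edgeR adjusted p = 0.00601 for TEV plus reserpine).

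The Atp5g genes encode the same mature c subunit of the rotor ring from separate loci. Atp5g1 had 102 and 92.96 CPM with TEV plus reserpine, 99.8 and 104 CPM with TEV, and 74.6 and 75.1 CPM with vehicle. Atp5g2 had 118 and 101 CPM with TEV plus reserpine, 86.5 and 101 CPM with TEV, and 82.7 and 83.5 CPM with vehicle. Atp5g3 had 151 and 140.5 CPM with TEV plus reserpine, 174 and 162 CPM with TEV, and 121 and 121 CPM with vehicle. Atp5g1 (0.44, edgeR adjusted p = 0.00441) and Atp5g3 (0.47, edgeR adjusted p = 0.00312) were called higher with TEV than with vehicle, and Atp5g2 was not (0.17, edgeR adjusted p = 0.239). All 3 were called higher with TEV plus reserpine than with vehicle. The call of Atp5g3 (0.27, edgeR adjusted p = 0.0369) was lost when any library of those groups was left out, and that of Atp5g1 (0.38, edgeR adjusted p = 0.0118) when either vehicle library or replicate 1 of TEV plus reserpine was left out. The call of Atp5g2 (0.39, edgeR adjusted p = 0.0319) was lost when any of the same 3 libraries was left out, and also once counts of its identical pseudogene Gm10175 were added (0.26, edgeR adjusted p = 0.0988). Atp5l, a membrane subunit with several pseudogenes, had 2.501 and 5.97 CPM with TEV plus reserpine, 13.5 and 6.73 CPM with TEV, and 9.03 and 7.94 CPM with vehicle, with the libraries of each vesicle group far apart, and was not called in any comparison.

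**Figure D3:**
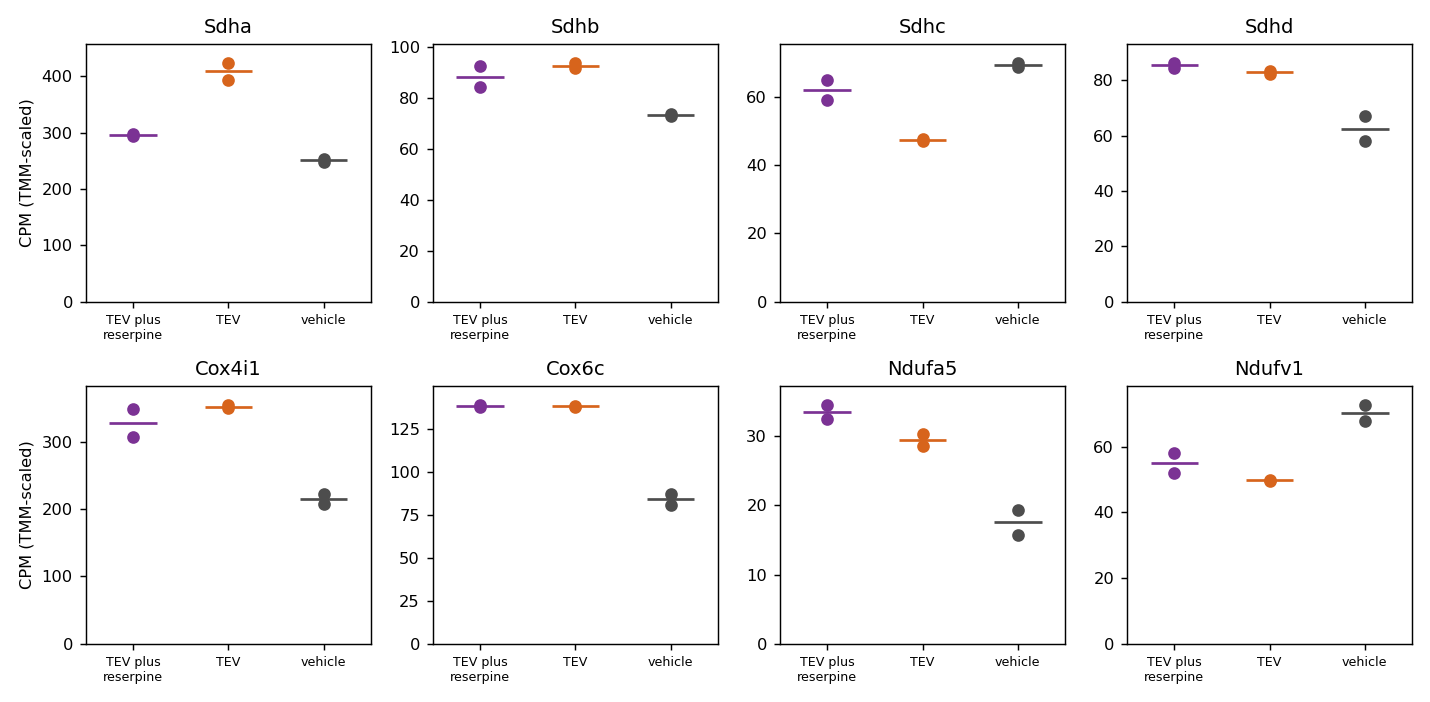
TMM-scaled CPM of the 4 complex II genes and of Cox4i1, Cox6c, Ndufa5 and Ndufv1 in each library, with lines at group means of 2 libraries. Sdha is highest and Sdhc lowest with TEV, and Ndufv1 is highest with vehicle, while Sdhb, Sdhd, Cox4i1, Cox6c and Ndufa5 are lowest with vehicle.

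The 8 assembly factors of complex I were mixed in direction. With TEV 3 (37.5%) were called higher and 1 (12.5%) lower than with vehicle, against 25.1% and 24.6% of all genes. With TEV plus reserpine 0 were called higher and 1 (12.5%) lower than with vehicle, against 19.1% and 19.9% of all genes. Ndufaf2, which binds a late assembly intermediate, had 12.6 and 12.1 CPM with TEV plus reserpine, 14.96 and 15.2 CPM with TEV, and 8.08 and 10.3 CPM with vehicle, with vehicle lowest (log2 change 0.72, SE 0.155, edgeR adjusted p = 0.0085 for TEV). Ndufaf3 had 4.87 and 4.36 CPM with TEV plus reserpine, 4.39 and 4.99 CPM with TEV, and 7.27 and 7.76 CPM with vehicle, with vehicle highest (log2 change -0.68, SE 0.178, edgeR adjusted p = 0.0185 for TEV). Ndufaf1, a factor of the membrane arm, had 12.3 and 14.04 CPM with TEV plus reserpine, 20.2 and 18.5 CPM with TEV, and 13.7 and 14.3 CPM with vehicle, and was highest with TEV (log2 change 0.46, SE 0.128, edgeR adjusted p = 0.0222 against vehicle) and lower with TEV plus reserpine than with TEV (log2 change -0.55, SE 0.129, edgeR adjusted p = 0.02). Atp5sl had 11.7 and 12.3 CPM with TEV plus reserpine, 15.9 and 15.7 CPM with TEV, and 11.01 and 11.6 CPM with vehicle, and was also highest with TEV (log2 change 0.48, SE 0.121, edgeR adjusted p = 0.0154 against vehicle). The call of Atp5sl in TEV plus reserpine against TEV (-0.39, edgeR adjusted p = 0.0497) was lost in 14 alternative settings. That of Ndufaf1 in TEV against vehicle was lost with scaling by library size alone and with thinning to the smallest library, among other settings. Ndufaf4, Ndufaf5, Ndufaf6 and Ndufaf7 were not called in any comparison.

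Reads of mitochondrial messages can be shared with nuclear pseudogenes, and the first 60 bases of the genes whose values turned most on such copies are shown with those of the copy, from GENCODE M21 transcripts on GRCm38. Capitals mark a base that differs between a member and its copy, counted from the first base of the transcript.
mt-Co3: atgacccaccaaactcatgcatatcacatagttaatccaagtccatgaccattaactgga
Gm28437: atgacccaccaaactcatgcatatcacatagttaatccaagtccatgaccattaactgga
mt-Nd3: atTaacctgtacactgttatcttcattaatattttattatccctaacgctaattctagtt
Gm28438: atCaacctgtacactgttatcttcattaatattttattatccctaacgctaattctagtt
The copy Gm28437 on chromosome 1 was identical to mt-Co3 over all 783 bases compared, so no read within them tells the genes apart. Gm28438, also on chromosome 1, differed from mt-Nd3 by T3C alone over 345 bases. Other copies with counts were Gm10925 of mt-Atp6 and Gm28661 of mt-Co2, identical over 678 and 681 bases, and Gm29216, which matched 483 bases of mt-Co1 at 99.8% identity. The copies of mt-Nd4 and mt-Nd4l had 0 counts in all libraries, and no near-identical copy was found for mt-Nd1, mt-Nd2, mt-Nd5, mt-Nd6 or mt-Cytb.

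mt-Co3, a core subunit of complex IV, had the largest listed change of the mitochondrial class, at 659 and 554 CPM with TEV plus reserpine, 1956 and 1590.2 CPM with TEV, and 2372 and 2647 CPM with vehicle. It was called lower with TEV plus reserpine than with TEV (log2 change -1.55, SE 0.132, edgeR adjusted p = 0.000838) and than with vehicle (log2 change -2.05, SE 0.134, edgeR adjusted p = 0.000108). Its copy was ordered the other way. Gm28437 had 1005 and 1288 CPM with TEV plus reserpine, 524 and 807 CPM with TEV, and 51.9 and 80.3 CPM with vehicle, and its share of the pair was 60.4% and 69.9% with TEV plus reserpine, 21.1% and 33.7% with TEV, and 2.14% and 2.95% with vehicle. Summed over the pair, the level was 1664 and 1842 CPM with TEV plus reserpine, 2479.7 and 2396 CPM with TEV, and 2424 and 2726 CPM with vehicle. The sum was still lower with TEV plus reserpine than with TEV (log2 change -0.48, SE 0.0853, edgeR adjusted p = 0.00861) and than with vehicle (log2 change -0.56, SE 0.0854, edgeR adjusted p = 0.00301). Between TEV and vehicle the listed value was called lower (log2 change -0.50, SE 0.129, edgeR adjusted p = 0.0171) and the sum was not (log2 change -0.079, SE 0.0851, edgeR adjusted p = 0.472). How much of the shift within the pair comes from the authors' assignment of reads was not tested.

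The other core subunits of complex IV differed less between groups. mt-Co1, the catalytic subunit and the member with the most counts, had 7886 and 8900.5 CPM with TEV plus reserpine, 9611 and 9393 CPM with TEV, and 8141 and 8847 CPM with vehicle. The group ranges of TEV plus reserpine and vehicle overlapped, and mt-Co1 was not called in any comparison, as listed or with its copy (0.16, edgeR adjusted p = 0.124 for TEV against vehicle as listed). mt-Co2, the subunit that takes electrons from cytochrome c, had 1274 and 1239.8 CPM with TEV plus reserpine, 1331 and 1468 CPM with TEV, and 1484 and 1564 CPM with vehicle as listed and 2239 and 2360.4 CPM with TEV plus reserpine, 2768 and 2769.6 CPM with TEV, and 2451 and 2653 CPM with vehicle with its copy. The sum was lower with TEV plus reserpine than with TEV (log2 change -0.27, SE 0.0683, edgeR adjusted p = 0.0264), and the listed value was lower with TEV plus reserpine than with vehicle (log2 change -0.28, SE 0.0757, edgeR adjusted p = 0.027), a call that was lost with the copy added (-0.15, edgeR adjusted p = 0.127) and when any library of those groups was left out.

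mt-Atp6, part of the proton channel of complex V, had 562 and 659.6 CPM with TEV plus reserpine, 711 and 761 CPM with TEV, and 1106 and 1211 CPM with vehicle, and its copy held between 41.1% and 59.5% of the pair. As listed it was lower than vehicle in TEV (log2 change -0.65, SE 0.1, edgeR adjusted p = 0.00202). The sum was 1192 and 1403 CPM with TEV plus reserpine, 1755 and 1764 CPM with TEV, and 1939 and 2054 CPM with vehicle, lower with TEV plus reserpine than with TEV (log2 change -0.44, SE 0.0903, edgeR adjusted p = 0.0132) and than with vehicle (log2 change -0.62, SE 0.0905, edgeR adjusted p = 0.0024), and not called between TEV and vehicle (log2 change -0.18, SE 0.0901, edgeR adjusted p = 0.134). mt-Nd3, a complex I subunit of low abundance, had 33.9 and 39.8 CPM with TEV plus reserpine, 35.7 and 51.95 CPM with TEV, and 24.2 and 32.7 CPM with vehicle and was the only mitochondrial member called higher with TEV (log2 change 0.63, SE 0.217, edgeR adjusted p = 0.0484). With its copy added it had 33.9 and 39.8 CPM with TEV plus reserpine, 39.98 and 51.9 CPM with TEV, and 40.4 and 55.1 CPM with vehicle, the estimate changed sign and the call was lost (log2 change -0.05, SE 0.188, edgeR adjusted p = 0.845).

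Members without copies, or whose copies had no counts, gave values that do not turn on this choice. mt-Nd4, a proton-pumping subunit of complex I, had 1651 and 1904 CPM with TEV plus reserpine, 1854 and 1808 CPM with TEV, and 2396 and 2462 CPM with vehicle. mt-Nd5, another pumping subunit, had 1628 and 1842 CPM with TEV plus reserpine, 1469 and 1558 CPM with TEV, and 2075 and 2076 CPM with vehicle. Vehicle was highest for both, and both were lower with TEV (log2 change -0.41, SE 0.0827, edgeR adjusted p = 0.00653 for mt-Nd4, and log2 change -0.46, SE 0.0804, edgeR adjusted p = 0.00367 for mt-Nd5).

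mt-Nd6, which is encoded on the opposite strand of the mitochondrial genome from the other mitochondrial members, had 296 and 329 CPM with TEV plus reserpine, 318 and 336 CPM with TEV, and 423 and 444 CPM with vehicle, again with vehicle highest (log2 change -0.41, SE 0.0829, edgeR adjusted p = 0.00667 for TEV). mt-Nd4l, a small subunit whose message is joined to that of mt-Nd4, had 161 and 187 CPM with TEV plus reserpine, 153 and 151 CPM with TEV, and 193 and 183 CPM with vehicle and was called lower with TEV (log2 change -0.31, SE 0.0936, edgeR adjusted p = 0.0312), a call that was lost when either library of vehicle or of TEV was left out. No label states whether the libraries kept strand, so reads of mt-Nd6 and of messages opposite it may not be told apart.

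mt-Nd1 and mt-Nd2, neighbouring complex I genes of the mitochondrial genome, were called lower with TEV plus reserpine than with TEV. So were mt-Co3, mt-Atp6 and mt-Co2 with their copies added. mt-Nd1 had 1229 and 1466 CPM with TEV plus reserpine, 2036 and 1980.5 CPM with TEV, and 1847 and 1953 CPM with vehicle, and mt-Nd2 had 611 and 725 CPM with TEV plus reserpine, 845 and 828 CPM with TEV, and 968 and 997 CPM with vehicle. TEV plus reserpine was lowest for both. mt-Nd1 was lower with TEV plus reserpine than with TEV (log2 change -0.58, SE 0.0948, edgeR adjusted p = 0.0066) and was not called between TEV and vehicle (log2 change 0.08, SE 0.0945, edgeR adjusted p = 0.513). mt-Nd2 was lower with TEV plus reserpine than with vehicle (log2 change -0.56, SE 0.0937, edgeR adjusted p = 0.00433), and also than with TEV (log2 change -0.32, SE 0.0935, edgeR adjusted p = 0.0392), although that call was lost when any library other than replicate 2 of TEV plus reserpine was left out. mt-Cytb, the mitochondrial subunit of complex III, had 2434 and 2693 CPM with TEV plus reserpine, 2607 and 2627 CPM with TEV, and 2932 and 3131 CPM with vehicle, was called lower with TEV plus reserpine than with vehicle (log2 change -0.24, SE 0.0745, edgeR adjusted p = 0.0407) and missed the threshold with TEV against vehicle (log2 change -0.21, SE 0.0744, edgeR adjusted p = 0.0515). The call of mt-Cytb was likewise lost when any library other than replicate 2 of TEV plus reserpine was left out.

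**Figure D4:**
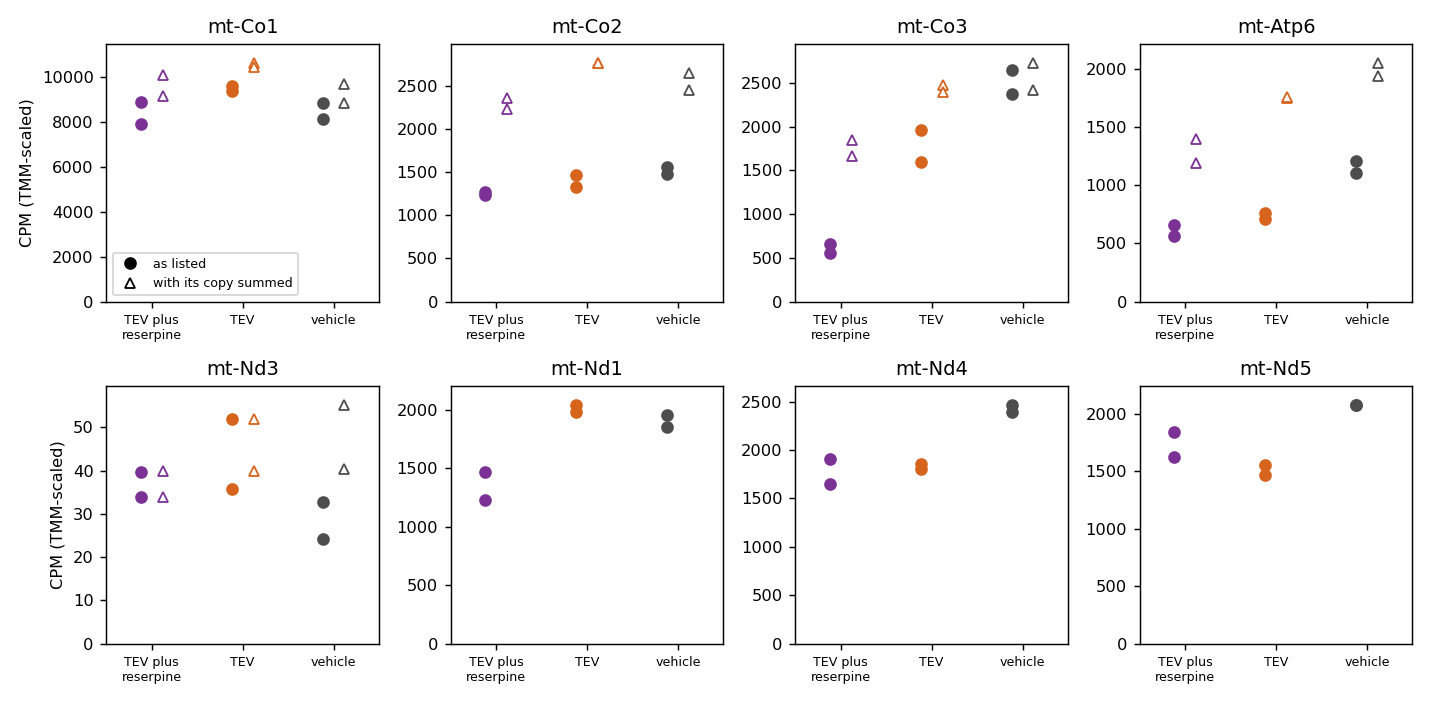
TMM-scaled CPM of 8 mitochondrially encoded members in each library, as listed (filled circles) and with the near-identical pseudogene copy summed (open triangles, where a copy had counts). The gap between circles and triangles of mt-Co3 is largest with TEV plus reserpine and smallest with vehicle, and mt-Nd4 and mt-Nd5 are highest with vehicle.

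Levels were divided by the joined length of all annotated exons of a gene. For a gene with several transcripts this length can exceed that of the message in use, which lowers its value. Levels therefore compare only roughly between genes. With members as listed and per kilobase of exon in GENCODE M21, the median over the mitochondrially encoded members was 866 and 989 CPM per kb with TEV plus reserpine, 1190 and 1210 CPM per kb with TEV, and 1680 and 1780 CPM per kb with vehicle. The median over nuclear subunits was 41.3 and 38.6 CPM per kb with TEV plus reserpine, 41.8 and 40.9 CPM per kb with TEV, and 32.5 and 35.9 CPM per kb with vehicle. The mitochondrial median per joined exon length was therefore far higher in every library, and the medians of the classes lay closer together in the vesicle groups than in vehicle. How much of the gap between the classes comes from the exon lengths was not tested. The listed values leave out counts of pseudogene copies, whose share of a pair differed between groups. For mt-Co3 the copy held 60.4% and 69.9% with TEV plus reserpine, 21.1% and 33.7% with TEV, and 2.14% and 2.95% with vehicle. Levels per length were not taken with copies summed, so the part of the copies in the smaller distance between classes was not tested. mt-Co1 had the highest mean in every group, at 5430 CPM per kb with TEV plus reserpine, 6150 with TEV and 5500 with vehicle. Atp5b had the highest mean of the nuclear members, at 281, 317 and 241 CPM per kb in the same groups. By this rough measure, the complex IV genes had the highest median among nuclear subunits and the complex I genes the lowest in every library. For complex IV it was 84.3 and 83.0 CPM per kb with TEV plus reserpine, 74.5 and 77.2 with TEV, and 51.5 and 60.7 with vehicle. For complex I it was 28.7 and 28.2 with TEV plus reserpine, 25.9 and 26.1 with TEV, and 22.5 and 21.9 with vehicle. No source used here names the annotation the authors counted on, so these lengths may differ from theirs.

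Many nuclear respiratory genes are known targets of NRF1 and of ETS-family factors such as GABP. The start-site windows of RefSeq on GRCm38.p6 were searched for the letters of known motifs, on both strands. A window of 300 bases around an annotated start was held for 64 of the 75 nuclear subunits. The NRF1 letters, GCGC on both sides of an A and any base, were found in 17 of the 64 (26.6%), against 5.19% of 27025 genes. Those 27025 are all genes with a window, whether or not they were tested here, and no share was taken over expressed genes alone. The ETS letters CCGGAAG were found in 16 (25%), against 9.93%, and the YY1 letters AAGATGGCG in 7 (10.9%), against 1.64%. No motif contains another. Of the 17 subunits with NRF1 letters 10 were called higher and 1 lower with TEV than with vehicle (58.8% higher), and of the 47 without them 24 were called higher and 4 lower (51.1% higher). Of the 16 with ETS letters 12 were called higher and 0 lower (75% higher), and of the 48 without them 22 higher and 5 lower (45.8% higher). For YY1 letters, 5 of the 7 with them were higher and 0 lower (71.4% higher). Of the 57 without YY1 letters 29 were higher and 5 lower (50.9% higher). Whether these shares differ was not tested. Shown as examples are the windows of Ndufa5 and Sdha, which rose with TEV, and of Ndufv1 and Ndufa6, which fell, with NRF1 matches of either strand in capitals. Each lies on the minus strand and is written in the direction of the gene. The regions are chr6:24527477-24527776 for Ndufa5, chr13:74350191-74350490 for Sdha, chr19:4012706-4013005 for Ndufv1 and chr15:82354242-82354541 for Ndufa6.
Ndufa5: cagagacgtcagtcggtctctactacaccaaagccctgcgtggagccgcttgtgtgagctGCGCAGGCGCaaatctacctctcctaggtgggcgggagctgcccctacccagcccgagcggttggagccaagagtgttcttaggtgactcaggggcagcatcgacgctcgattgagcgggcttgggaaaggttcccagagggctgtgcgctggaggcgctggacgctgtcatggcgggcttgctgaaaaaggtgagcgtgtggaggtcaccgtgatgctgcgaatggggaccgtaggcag
Sdha: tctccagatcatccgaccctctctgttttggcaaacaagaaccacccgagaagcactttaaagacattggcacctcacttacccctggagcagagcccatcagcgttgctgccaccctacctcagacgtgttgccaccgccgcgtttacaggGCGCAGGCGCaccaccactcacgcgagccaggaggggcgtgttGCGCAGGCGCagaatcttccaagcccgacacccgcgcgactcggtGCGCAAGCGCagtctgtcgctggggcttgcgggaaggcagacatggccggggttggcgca
Ndufv1: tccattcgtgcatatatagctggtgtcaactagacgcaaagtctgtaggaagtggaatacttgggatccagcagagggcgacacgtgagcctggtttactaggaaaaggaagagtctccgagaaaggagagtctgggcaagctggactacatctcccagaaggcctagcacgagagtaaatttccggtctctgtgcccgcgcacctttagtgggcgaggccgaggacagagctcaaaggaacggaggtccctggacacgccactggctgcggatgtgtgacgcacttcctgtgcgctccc
Ndufa6: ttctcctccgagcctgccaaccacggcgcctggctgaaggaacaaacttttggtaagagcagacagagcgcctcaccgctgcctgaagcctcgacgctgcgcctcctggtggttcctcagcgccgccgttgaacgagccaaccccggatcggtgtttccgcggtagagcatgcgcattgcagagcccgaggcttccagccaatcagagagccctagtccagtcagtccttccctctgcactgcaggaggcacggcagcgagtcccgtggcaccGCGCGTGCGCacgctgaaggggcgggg
The printed windows of Ndufa5 and Ndufa6 hold 1 match each and that of Sdha holds 3, and the Ndufv1 window holds none of the 3 motifs. A match describes letters in a window, and binding was not measured.

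Other genes of the pathway were counted from lists. Of all genes tested, 25.1% were called higher and 24.6% lower with TEV than with vehicle. The shares were 15.7% and 16% in TEV plus reserpine against TEV, and 19.1% and 19.9% in TEV plus reserpine against vehicle. Of 18 measured electron carriers and subunits outside the symbol patterns, 7 (38.9%) were called higher and 2 (11.1%) lower with TEV than with vehicle. With TEV plus reserpine 6 (33.3%) were higher and 1 (5.56%) lower than with vehicle. Cyc1 had 32.7 and 26.1 CPM with TEV plus reserpine, 43.2 and 39.9 CPM with TEV, and 30.8 and 32.3 CPM with vehicle, and was highest with TEV (0.40, edgeR adjusted p = 0.0384 against vehicle, and -0.50, edgeR adjusted p = 0.0268 for TEV plus reserpine against TEV). Cycs, cytochrome c itself, had 112 and 110.4 CPM with TEV plus reserpine, 97.8 and 98.6 CPM with TEV, and 67.5 and 76.95 CPM with vehicle, with both vesicle groups above vehicle (0.44, edgeR adjusted p = 0.00614 for TEV). Coq10b, which binds coenzyme Q, had 59.9 and 65.6 CPM with TEV plus reserpine, 161 and 116 CPM with TEV, and 52.3 and 53.2 CPM with vehicle, and was highest with TEV (1.39, edgeR adjusted p = 0.000535). Etfdh, which passes electrons from fatty acid oxidation to coenzyme Q, had 54.9 and 55.6 CPM with TEV plus reserpine, 83.2 and 73.1 CPM with TEV, and 42.8 and 47.1 CPM with vehicle, and was also highest with TEV (0.80, edgeR adjusted p = 0.000872).

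Assembly factors outside the symbol patterns were called in both directions. For complex IV 7 of 24 measured factors (29.2%) were called higher and 6 (25%) lower with TEV, near the 25.1% and 24.6% of all genes, with a median of 0.10. Cox17, a copper chaperone, rose with TEV (0.89, edgeR adjusted p = 0.000852), and Cox15, which makes haem A, fell (-0.91, edgeR adjusted p = 0.0016). Cox19 had 5.18 and 4.62 CPM with TEV plus reserpine, 19.99 and 11.8 CPM with TEV, and 8.5 and 8.74 CPM with vehicle, the largest called fall of this list with TEV plus reserpine against TEV (-1.69, edgeR adjusted p = 0.00546). For complex I, Timmdc1 (-0.82, edgeR adjusted p = 0.00126) and Tmem126a (-0.72, edgeR adjusted p = 0.00175) were lower with TEV than with vehicle and 0 of 9 measured factors were higher. For complex III 1 of 6 (16.7%) was higher and 2 (33.3%) were lower with TEV. Of these, Lyrm7, which stabilises the Rieske protein before its insertion, had 5.32 and 4.85 CPM with TEV plus reserpine, 0.583 and 1.32 CPM with TEV, and 8.36 and 8.29 CPM with vehicle, and was lowest with TEV (-3.07, edgeR adjusted p = 0.000665 against vehicle, and 2.36, edgeR adjusted p = 0.00498 for TEV plus reserpine against TEV). Neither of 2 measured complex II factors was called. Of 3 measured ATP synthase factors, Atpaf2 was higher (0.55, edgeR adjusted p = 0.0159) and Tmem70 lower (-0.24, edgeR adjusted p = 0.0488) with TEV.

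Mitochondrial RNA is made and processed by nuclear-encoded proteins. Of 27 measured genes of that machinery, 3 (11.1%) were called higher and 4 (14.8%) lower with TEV than with vehicle. The shares of all genes were 25.1% and 24.6%. With TEV plus reserpine against TEV 1 (3.7%) was higher and 2 (7.41%) lower, against 15.7% and 16% of all genes. Polrmt, the mitochondrial RNA polymerase, had 35.9 and 26.8 CPM with TEV plus reserpine, 51.03 and 52.6 CPM with TEV, and 41.6 and 42.8 CPM with vehicle, and was lower with TEV plus reserpine than with TEV (-0.73, edgeR adjusted p = 0.0109) and than with vehicle (-0.43, edgeR adjusted p = 0.0493). Tfam, which packages and activates mitochondrial DNA, had 33.8 and 36.3 CPM with TEV plus reserpine, 39.3 and 33.4 CPM with TEV, and 28.2 and 38.1 CPM with vehicle, overlapped between all groups and was not called. Lactb2, an endoribonuclease of the matrix, fell in both vesicle groups (-0.92, edgeR adjusted p = 0.000438 for TEV). Supv3l1, a helicase of the mitochondrial RNA degradosome, rose with TEV (0.53, edgeR adjusted p = 0.00473).

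For mitochondrial DNA replication 1 of 10 measured genes (10%) was called higher and 5 (50%) lower with TEV than with vehicle. The shares of all genes were 25.1% and 24.6%. With TEV plus reserpine against TEV 4 (40%) were higher and 1 (10%) lower, against 15.7% and 16% of all genes. Tk2, a mitochondrial thymidine kinase, had 6.97 and 4.19 CPM with TEV plus reserpine, 3.44 and 2.43 CPM with TEV, and 11.1 and 10.9 CPM with vehicle, with the vesicle groups below vehicle (-1.92, edgeR adjusted p = 0.00198 for TEV). Top1mt, the mitochondrial topoisomerase, had 12.02 and 12.03 CPM with TEV plus reserpine, 6.36 and 7.83 CPM with TEV, and 13.5 and 13.2 CPM with vehicle, lowest with TEV (-0.91, edgeR adjusted p = 0.00288). Polg2, the accessory subunit of the DNA polymerase, had 3.08 and 3.04 CPM with TEV plus reserpine, 7.58 and 5.82 CPM with TEV, and 4.58 and 3.55 CPM with vehicle and was highest with TEV (0.71, edgeR adjusted p = 0.0376).

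Among 15 regulators of respiratory genes 3 (20%) were called higher and 3 (20%) lower with TEV, near the 25.1% and 24.6% of all genes. Nrf1 had 32.4 and 28.5 CPM with TEV plus reserpine, 45.1 and 39.03 CPM with TEV, and 31.4 and 35.3 CPM with vehicle, was not called with TEV against vehicle (0.34, edgeR adjusted p = 0.0583) and was lower with TEV plus reserpine than with TEV (-0.47, edgeR adjusted p = 0.0303). Gabpa had 78.6 and 86.5 CPM with TEV plus reserpine, 70.2 and 70.99 CPM with TEV, and 77.9 and 73.5 CPM with vehicle and was not called in any comparison, nor was Esrra (-0.17, edgeR adjusted p = 0.307 for TEV against vehicle). Ppargc1a and Ppargc1b, the coactivators of mitochondrial biogenesis, were at or under 1.23 CPM in all libraries and were not called. Nrip1, a corepressor of oxidative genes, had 33.1 and 41.1 CPM with TEV plus reserpine, 21.8 and 25.2 CPM with TEV, and 71.5 and 63.4 CPM with vehicle, with TEV lowest (-1.52, edgeR adjusted p = 0.000246 for TEV against vehicle). Myc had 196 and 187 CPM with TEV plus reserpine, 64.7 and 103 CPM with TEV, and 138 and 145 CPM with vehicle, also lowest with TEV (-0.76, edgeR adjusted p = 0.0177), and Yy1 rose with TEV (0.44, edgeR adjusted p = 0.00841).

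Of 17 measured tricarboxylic acid cycle and pyruvate dehydrogenase genes 6 (35.3%) were called higher and 2 (11.8%) lower with TEV than with vehicle. The shares of all genes were 25.1% and 24.6%. The E1 alpha subunit Pdha1 had 110.1 and 124 CPM with TEV plus reserpine, 76.3 and 85.5 CPM with TEV, and 166 and 163 CPM with vehicle, and the E2 subunit Dlat had 44.4 and 47.02 CPM with TEV plus reserpine, 42.5 and 42.4 CPM with TEV, and 78.8 and 77.2 CPM with vehicle. Both were lower with TEV than with vehicle (-1.02, edgeR adjusted p = 0.000266 for Pdha1, and -0.88, edgeR adjusted p = 0.00025 for Dlat), whereas Pdhb, the E1 beta subunit, was higher (0.59, edgeR adjusted p = 0.00131). Of 20 import and outer membrane genes 3 (15%) were called higher and 3 (15%) lower with TEV, under the shares of all genes. With TEV plus reserpine against TEV 5 (25%) were higher and 3 (15%) lower, against 15.7% and 16% of all genes. The chaperonin Hspd1 had 496 and 541 CPM with TEV plus reserpine, 350.1 and 367 CPM with TEV, and 509 and 531 CPM with vehicle and was lowest with TEV (-0.54, edgeR adjusted p = 0.0016). Immt, a scaffold of cristae, had 182 and 193 CPM with TEV plus reserpine, 259 and 227 CPM with TEV, and 166 and 166 CPM with vehicle and was highest with TEV (0.55, edgeR adjusted p = 0.00237). Vdac1, an outer membrane channel, had 260.5 and 280.4 CPM with TEV plus reserpine, 181 and 189 CPM with TEV, and 235 and 223 CPM with vehicle and was lowest with TEV (-0.31, edgeR adjusted p = 0.0161).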

How the data were processed

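Per the labels' protocols, TruSeq libraries of polyA RNA were read on a NextSeq, as single reads of 75 bp. Per the submitters' processing notes, kallisto 0.45.0 and R 4.0.0 with edgeR and limma were used. The authors deposited a raw and a filtered table of estimated counts per gene symbol. The filtered table held the same values as the raw table for genes over 1 CPM in at least 2 libraries, so neither carries a normalization. GRCh38, a human build, stands in those notes, while the gene symbols are mouse ones. No source used here gives the strand.

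Here the 30055 symbols of the raw table, of which 8192 had no count, were rounded, filtered with filterByExpr to 15035 genes and scaled by TMM (0.941 to 1.04). All 95 members passed that filter. All comparisons came from 1 fit of the 6 libraries with edgeR's quasi-likelihood test and 3 residual degrees of freedom. Genes were called at a Benjamini-Hochberg adjusted p under 0.05, adjusted over all genes of a comparison. SE is the log2 change over the square root of F. The procedure was also run on simulated counts of fixed spread, with no reads shared between copies. That run does not measure its error in these libraries. CPM of members are TMM-scaled; CPM of Ch25h and of symbols outside the filtered table are per library total. With 2 libraries a group, the spread between libraries sets the precision; libraries of a group differed by more than counting noise (chi-square per gene from 19.5 to 43.3). No column of the files was left out (0). R 4.3.3, edgeR 4.0.16, limma 3.58.1, DESeq2 1.42.0 and BLAST 2.17.0 were used.

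The members, gene lists and markers were chosen with earlier results of these data known. Named with values were all mitochondrially encoded members, complex II, tissue isoforms, the most changed called members of each complex, the most changed called genes of each list, and 8 regulators and carriers. Some genes that this allowed are given as counts only, chosen after their values were seen. Copies were GENCODE M21 transcripts at 98% identity or more over at least 75 bases; summing them was added after the values were seen. Alternatives were other scalings, other filters, DESeq2, limma-voom, the groups compared alone, each library left out, a replicate block and thinning to the smallest library.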

Additional observations from a re-analysis of the deposited data

Results flagged for a closer look

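Ndufa4, a small subunit named after complex I and now placed in complex IV, lies outside the 95 members because it did not reach the filtered table. It had 128 estimated counts in replicate 1 of TEV and was listed at 0 in the other 5 libraries, both vehicle libraries included. It stands here because a count appeared in 1 library of a gene that no comparison used.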

How the results depend on the processing

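Of the called members, none changed direction in any alternative run except mt-Nd3 in TEV against vehicle, which was -0.050 on the log2 scale with pseudogene copies summed (edgeR adjusted p = 0.845). Calls held in every setting for 25 of 58 members in TEV against vehicle, 4 of 12 in TEV plus reserpine against TEV and 16 of 51 in TEV plus reserpine against vehicle. With no library left out these were 38, 7 and 39.

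With each library left out, nuclear subunits called higher ranged from 20 to 42 in TEV against vehicle, 1 to 4 in TEV plus reserpine against TEV and 13 to 40 in TEV plus reserpine against vehicle. Those called lower ranged from 3 to 6, 1 to 3 and 0 to 2. Mitochondrially encoded members called higher ranged from 0 to 1 in TEV against vehicle. The library left out is named in the report where it moved a count most.

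Scaling by library size alone gave 27 nuclear subunits higher and 0 mitochondrially encoded members higher in TEV against vehicle. It gave 7 nuclear higher, 1 nuclear lower and 1 mitochondrially encoded member higher in TEV plus reserpine against TEV, and 2 nuclear lower in TEV plus reserpine against vehicle. It moved the median of all genes to -0.11, 0.079 and -0.070 in these comparisons, and higher genes made up 39.8%, 59.4% and 43.9% of all calls, against 50.5%, 49.5% and 49% with TMM. Mitochondrially encoded members called higher in TEV against vehicle were 0 with RLE factors, with the 2 groups alone and with copies summed. In TEV plus reserpine against vehicle, 2 nuclear subunits were lower with no filter, with the deposited filtered genes, with DESeq2 and with limma-voom. With copies summed, 5 mitochondrially encoded members were lower in TEV plus reserpine against TEV.

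The log2 ratio differed by -0.38 in TEV against vehicle with copies summed. With members as listed, class medians of log2 CPM gave -0.29 in TEV against vehicle, -0.77 in TEV plus reserpine against TEV and -1.06 in TEV plus reserpine against vehicle. The mitochondrial median turns on listed mt-Co3, which shares reads with its identical copy and averaged 1773 CPM with TEV and 606 CPM with TEV plus reserpine. Class medians with copies summed were not taken for this ratio. Without the most abundant member of each class, as listed, the log2 ratio differed by -0.63 in TEV against vehicle and -0.85 in TEV plus reserpine against vehicle. The cause of these shifts was not tested.

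Libraries of the same number in their titles did not deviate together (correlations of 0.019, 0.024 and -0.042 between groups), so the numbers were not taken to pair libraries. The descriptions in the labels number the vesicle libraries 2 and 3, which disagrees with the titles. With a replicate block, 39 nuclear subunits were higher in TEV against vehicle and 1 was lower in TEV plus reserpine against TEV. Depth was lowest in replicate 1 of TEV plus reserpine, where 3 counts equal 0.135 CPM, which limits Cox6b2, Atp5l and other low members.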

Other observations

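Besides the 95 members, 13 symbols of the same patterns lay outside the deposited filtered table. mt-Atp8, the small mitochondrially encoded subunit of complex V whose gene overlaps mt-Atp6, was listed at 0 in all 6 libraries. Ndufa4l2, a hypoxia-induced relative of Ndufa4, had 0 and 0.99 estimated counts with TEV plus reserpine, 0 and 0 with TEV, and 32.4 and 18.6 with vehicle. It was called lower with TEV plus reserpine than with vehicle (edgeR adjusted p = 0.00866) and with TEV than with vehicle (edgeR adjusted p = 0.00225), with both vehicle libraries above all 4 vesicle libraries. The summed pericyte and smooth muscle markers given in the report were highest in the same 2 libraries, and their part in this difference was not tested.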
